A study of Mus musculus with 103 samples.

Results

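Daily rhythms of liver transcripts were measured in old C57BL6/J mice that had eaten a normal diet for 25 weeks. The samples were the 22 microarrays titled as old, normal diet and liver, beside 81 arrays of the other groups in the study. They came from mice labelled 84 to 93 weeks old, 12 labelled female and 10 labelled male. Light and dark each lasted 12 h, and livers were taken every 4 h at zeitgeber times (ZT, hours after lights on) 0, 4, 8, 12, 16 and 20. There were 4 arrays at ZT0, ZT4, ZT12 and ZT16, and 3 arrays at ZT8 and ZT20.

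The other groups, of the same strain and light cycle, were young mice on the normal diet (25 arrays, median age 52 weeks), old mice on a calorie-restricted diet for 25 weeks (24 arrays, median 88 weeks) and young mice on that diet for 25 weeks (32 arrays, median 51 weeks). The young groups hold 2 arrays with labelled ages far from the rest, 1 of 88 weeks on the restricted diet and 1 of 23 weeks on the normal diet, which is less than the 25 weeks given for the diet; both were kept. The hours at which food was given are not stated in the sources used here. The labels number the replicates without saying that they came from separate animals. Labelled ages differ within a time, such as 86, 87 and 88 weeks at ZT20, which repeats of 1 animal would not give. Other arrays of a time share age and labelled sex, such as ZT16 replicates 3 and 4 (90 weeks, female), and could be technical repeats. The p-values thus take in no more than the spread among these samples, which may in part be technical. The values did not separate the labelled sexes. The Y-linked gene Eif2s3y had a log2 intensity of 9.29 (SD 0.31, n = 12) on arrays labelled female and 9.24 (SD 0.25, n = 10) on arrays labelled male. Kdm5d, also Y-linked, had 6.85 (SD 0.22) and 6.79 (SD 0.17). Xist had 4.22 and 4.25, near the filter on low values at 4.139. Y-linked transcripts were thus as high on arrays labelled female as on those labelled male, so the female labels were not borne out. The tissue label was borne out by hepatocyte genes. Alb, Apoa1 and Trf, which encode plasma proteins, averaged 12.44, 12.51 and 12.68, at the top of the 15567 genes measured. The fat cell genes Adipoq and Lep averaged 3.64 and 3.52, below the filter on low values. Of the other fat cell markers measured, Retn averaged 4.91 and Fabp4 8.40, above that filter.

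Liver cells keep time with a feedback loop of transcription factors. CLOCK or NPAS2 pairs with ARNTL (BMAL1) and binds E-boxes, DNA elements with the core CACGTG, to switch on the Per and Cry genes, whose proteins then block that pair. The same pair drives the nuclear receptors of the REV-ERB family, which repress Arntl, Clock, Npas2, Nfil3 and Cry1, and the PAR bZIP factors TEF and HLF, which act through D-boxes against NFIL3. In liver these factors and the daily cycle of feeding set the hours of fat, sterol, bile acid, glycogen and drug metabolism and of protein secretion.

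A 24 h rhythm was described for each gene by a fitted cosine wave. Its amplitude is the height of the wave above its mean in log2 units, so the peak-to-trough fold is 2 to the power of double the amplitude, and its peak is a ZT. A gene was called rhythmic when its adjusted p in limma was under 0.05. Errors are SE unless called SD.

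Of the 22 arrays, 2 did not match their labelled hour in their clock transcripts. The levels of 30 clock and clock-controlled genes on each array were matched to their curves in young mice on the normal diet, and the hour of the closest match was taken as the array's clock time. For 20 arrays it lay between 2.2 h before and 2.4 h after the label. The array labelled ZT16, replicate 2, had a clock time of 5.8, which is 10.2 h before its label, and ZT20, replicate 2, had a clock time of 15.1, which is 4.9 h before. These 2 are called the arrays away from their hour. The name refers to their transcripts, since whether the labels were wrong or the clock transcripts altered was not tested. Over all 22 arrays the median distance was 1.05 h, with 14 arrays before their label, 7 after and 1 at it. Against curves of the other old arrays on the normal diet the median was 0.95 h. Read in that way, it was 0.7 h for the 25 young arrays, each left out of its own curves, of which 1 lay over 3 h away.

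**Figure D1:**
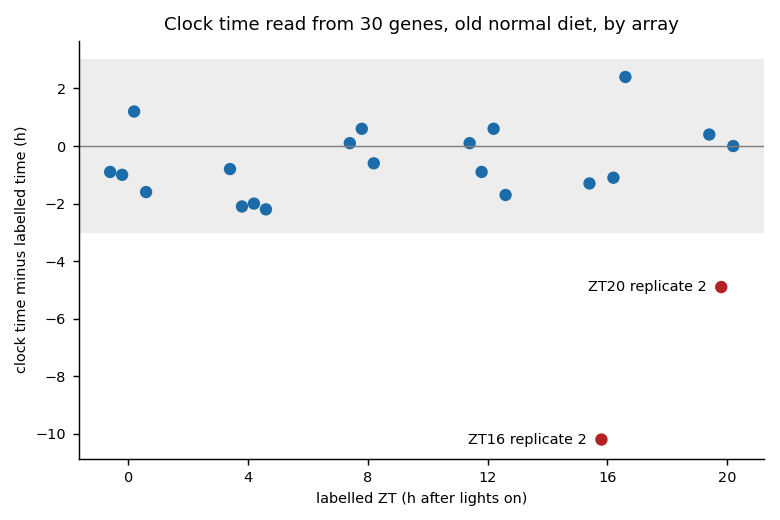
Clock time minus labelled time (h, vertical axis) for each of the 22 arrays by labelled ZT (h, horizontal axis; points of one time are spread sideways), with the band within 3 h shaded. The array ZT16 replicate 2 lies at -10.2 h and ZT20 replicate 2 at -4.9 h, and the other 20 arrays lie between -2.2 and 2.4 h.

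The array ZT16 replicate 2 also stood apart in its other transcripts. On it 381 genes lay over 1 log2 unit above all 3 other arrays of that time and 110 lay as far below, against 2 to 10 above and 2 to 7 below for each of the others. It was joined by ZT20 replicates 1 and 3 at the high end of the first principal component, at 50.1, 20.9 and 21.5, a component that held 28.7% of the variance. The mean of 6 neutrophil markers was 8.70 on ZT16 replicate 2, and 4.96 to 5.32 on the other ZT16 arrays. The mean of 9 Kupffer cell markers was 9.72 there, 9.54 and 9.04 on ZT20 replicates 1 and 3, and 7.37 to 8.58 on the other 19 arrays. Hepatocyte markers stayed between 11.69 and 11.92 on all 22. In RNA of whole liver, more cells of a type and more of their RNA per cell cannot be told apart. Counts are therefore given for all 22 arrays, without ZT16 replicate 2, and without these 3 arrays, which leaves 1 array at ZT20.

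Of the 11675 genes tested, 3423 (29.3%) were rhythmic in old mice on the normal diet. The rhythm was over 1.5-fold from trough to peak in 1007 genes, over 2-fold in 295 (2.53% of those tested) and over 4-fold in 23. The median amplitude over all genes tested was 0.109. Without ZT16 replicate 2, 2691 genes (23%) were rhythmic, and without the 3 arrays 2068 (17.7%), of which 1909 were among the 3423. Without the 2 arrays away from their labelled hour the count was 2791 (23.9%). The 10 arrays labelled male gave 2587 rhythmic genes alone and the 12 labelled female gave 403, and the only labelled male array at ZT16 was replicate 2. These are counts by label, which the values do not show to be a split by sex.

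Peak times covered the whole day. Over all 22 arrays 620 genes peaked within 2 h of ZT0, 724 around ZT4, 495 around ZT8, 581 around ZT12, 611 around ZT16 and 392 around ZT20. Without ZT16 replicate 2 the windows of ZT0 and ZT12 held 612 and 618 genes, while those of ZT4, ZT8, ZT16 and ZT20 held 471, 340, 355 and 295. The counts around dawn and dusk were thus similar with and without it, and the ZT4 and ZT16 windows lost the most. Without the 3 arrays 129 genes peaked around ZT20.

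**Figure D2:**
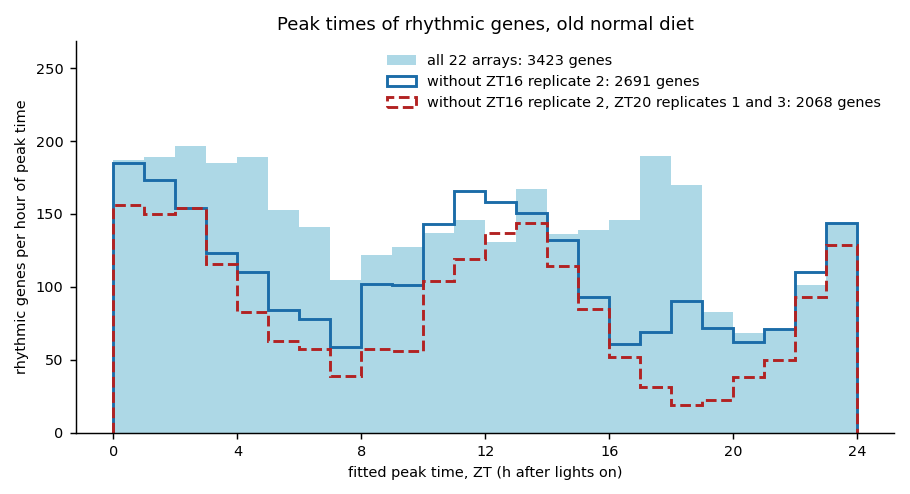
Number of rhythmic genes (vertical axis) per hour of fitted peak time (horizontal axis, ZT in h) in old mice on the normal diet. The filled bars are all 22 arrays (3423 genes), the solid line leaves out ZT16 replicate 2 (2691 genes), and the dashed line leaves out that array and ZT20 replicates 1 and 3 (2068 genes), where peaks near ZT0 and ZT12 dominate.

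Among 15 tested genes of the core clock, counting the output factors Tef, Hlf and Nfil3, 13 were rhythmic (29.3% of all genes were). The activator Arntl had log2 intensities of 5.96, 6.03, 5.69 and 6.16 at ZT0, of 5.33, 5.70, 5.58 and 5.59 at ZT4, of 4.78, 4.28 and 4.36 at ZT8, of 4.60, 4.32, 4.63 and 4.41 at ZT12, of 5.12, 4.64, 5.24 and 5.74 at ZT16, and of 5.87, 5.20 and 5.77 at ZT20. The ZT0 arrays were above those of ZT8 and ZT12 and overlapped ZT4 at 1 array, and the replicate 2 arrays at ZT16 and ZT20 were the lowest of their times. The fitted amplitude of Arntl was 0.77 ± 0.078 with a peak at ZT22.9 ± 0.38 h (adjusted p = 4.2e-12 in limma). Its partners peaked beside it, Clock with an amplitude of 0.52 ± 0.085 at ZT23.2 and Npas2 with 1.69 ± 0.24 at ZT0.11. Npas2 was between 6.35 and 7.63 at ZT0 and between 3.25 and 3.67 on all 7 arrays of ZT8 and ZT12.

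The repressors peaked through the afternoon and night, in the order Nr1d2, Per1, Ciart, Per3, Per2, Cry2 and Cry1. Neighbours in that order up to Cry2 lay within the spread of their peak times, and Cry1 stood apart. Nr1d2, which encodes REV-ERB beta, read 5.26, 5.36, 6.92 and 5.15 at ZT0, 7.47, 6.76, 6.96 and 7.21 at ZT4, 8.30, 8.35 and 8.12 at ZT8, 7.93, 8.32, 8.14 and 8.25 at ZT12, 7.26, 7.01, 7.29 and 5.61 at ZT16, and 5.18, 7.23 and 4.49 at ZT20. The ZT8 and ZT12 arrays were all above those of the other times. At ZT20 the 7.23 of replicate 2 stood far above the other arrays. Its amplitude was 1.49 ± 0.17 and its peak ZT9.6 ± 0.41 h.

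Per1, the Period gene that also answers to hormones and light, had an amplitude of 0.77 ± 0.16 at ZT10.9. Per3 had the largest amplitude of the family, 1.56 ± 0.17 at ZT12.2 ± 0.43 h, a peak-to-trough fold of 8.69. Per2 had 1.26 ± 0.18 at ZT13.6 ± 0.59 h. On the array ZT20 replicate 2, Per2 read 8.34 and Per3 8.50, against 6.73 and 6.98 and against 6.02 and 6.81 on the other ZT20 arrays. Cry2 peaked at ZT14.0 with an amplitude of 0.41 ± 0.073, and Cry1 last, at ZT19.3 ± 0.41 h with 0.95 ± 0.11. Ciart, a further repressor of the CLOCK and ARNTL pair, had 0.96 ± 0.14 at ZT11.7.

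Among the output factors, Tef had an amplitude of 1.03 ± 0.10 at ZT11.8 and Hlf 0.37 ± 0.083 at ZT11.4. Nfil3, which competes with them at D-boxes, peaked almost opposite, at ZT22.8 ± 0.86 h with an amplitude of 0.70 ± 0.16. Nfil3 lay between 6.68 and 7.12 on the 7 arrays of ZT8 and ZT12 and between 7.42 and 8.64 on the other 15, so the 2 sets did not overlap. Rora, an activator of Arntl, had an amplitude of 0.007 ± 0.028 (adjusted p = 0.98), and Bhlhe40 had 0.22 ± 0.093 (adjusted p = 0.14). The 13 genes stayed rhythmic without the 2 arrays away from their hour, and without the 3 arrays apart.

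**Figure D3:**
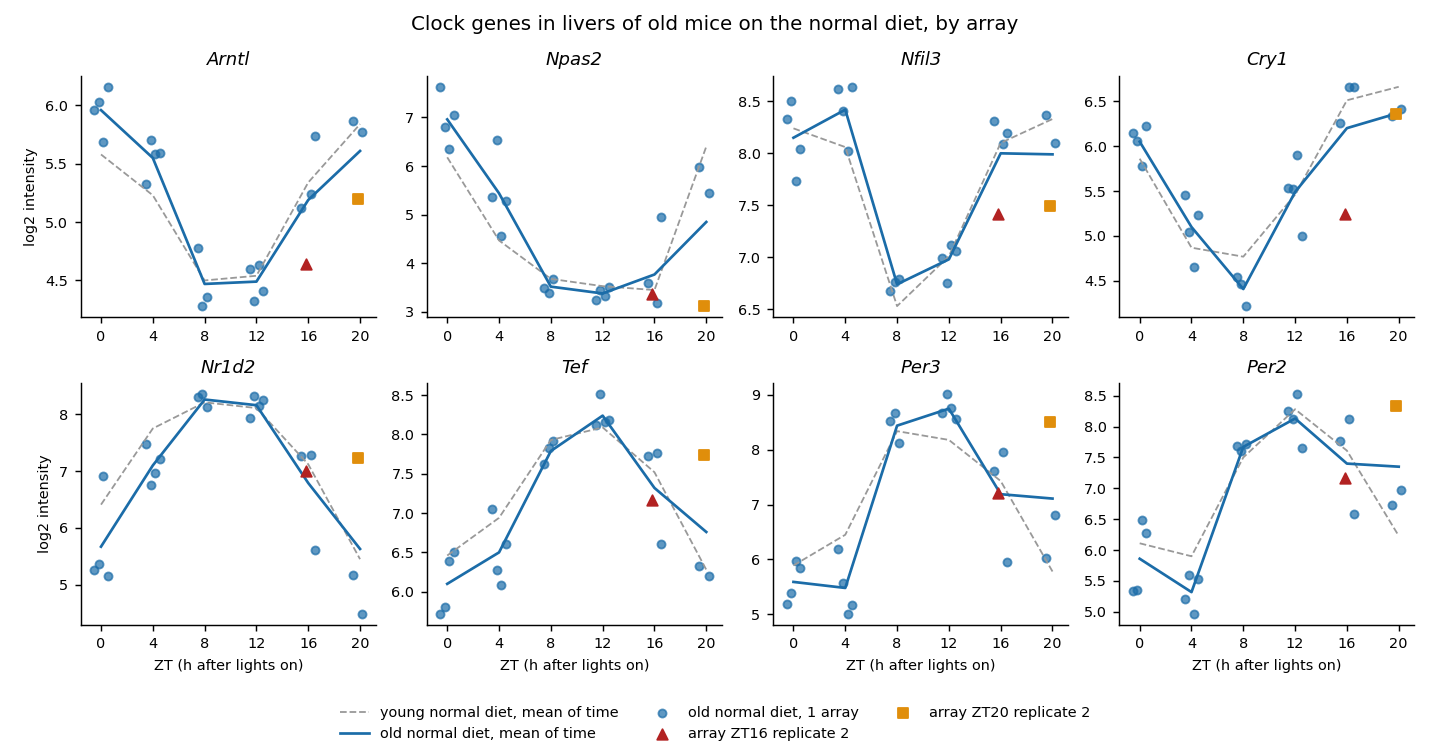
Log2 intensity (vertical axes, 1 scale per gene) of 8 clock genes by labelled ZT (h, horizontal axis). Points are single arrays of old mice on the normal diet, the solid line joins their means and the dashed line the means of young mice on that diet; the triangle (ZT16 replicate 2) and the square (ZT20 replicate 2) are the arrays away from their hour. Arntl, Npas2 and Nfil3 were low at ZT8 and ZT12, when Nr1d2, Tef, Per3 and Per2 were high, and Cry1 was lowest at ZT8.

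The promoters of 5 clock genes and of Coq10b are shown as examples with matches to elements through which the clock factors act. All but Cry1 peaked near dusk. Among other genes with peaks near dusk, the Usp2 promoter held no match and that of Hlf only TGACGTCA, the cAMP response element. Of the clock genes with other peak times, Nr1d2, Arntl, Clock and Npas2 held no match. Each sequence is the 250 bases before the start of transcription, on the strand of the gene, from RefSeq on GRCm38.p6. Capitals mark matches, on either strand, to the E-box CACGTG, to its variant CACGTT or to the D-boxes TTATGTAA and TTACGTAA. Per1 (chr11:69098699-69098948, plus strand) had an E-box 166 bases before the start. Per3 (chr4:151044666-151044915, minus strand) had no E-box in this window and a pair of D-boxes at 205 and 158 bases. Cry1 (chr10:85185055-85185304, minus strand) had the variant at 79 bases and an E-box at 60. Ciart (chr3:95882229-95882478, minus strand) had E-boxes at 116, 58 and 44 bases, and Tef (chr15:81802423-81802672, plus strand) had one at 127. Coq10b (chr1:55052520-55052769, plus strand), a gene of coenzyme Q metabolism, had a D-box at 162 and an E-box at 78 bases, and its rhythm had an amplitude of 0.91 at ZT11.5.
Per1: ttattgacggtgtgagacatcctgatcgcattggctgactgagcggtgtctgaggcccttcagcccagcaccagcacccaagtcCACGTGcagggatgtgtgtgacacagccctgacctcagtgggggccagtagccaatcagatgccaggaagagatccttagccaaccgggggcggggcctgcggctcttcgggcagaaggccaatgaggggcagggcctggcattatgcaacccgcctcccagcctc
Per3: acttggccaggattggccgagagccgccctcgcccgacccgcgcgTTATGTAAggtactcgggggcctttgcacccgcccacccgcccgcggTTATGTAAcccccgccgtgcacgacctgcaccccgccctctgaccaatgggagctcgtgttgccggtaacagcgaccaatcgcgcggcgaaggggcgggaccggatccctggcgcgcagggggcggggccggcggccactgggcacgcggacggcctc
Cry1: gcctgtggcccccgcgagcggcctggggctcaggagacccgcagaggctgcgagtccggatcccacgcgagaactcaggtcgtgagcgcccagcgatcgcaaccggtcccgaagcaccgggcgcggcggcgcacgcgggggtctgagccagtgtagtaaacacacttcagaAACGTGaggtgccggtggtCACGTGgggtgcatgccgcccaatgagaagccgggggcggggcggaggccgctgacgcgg
Ciart: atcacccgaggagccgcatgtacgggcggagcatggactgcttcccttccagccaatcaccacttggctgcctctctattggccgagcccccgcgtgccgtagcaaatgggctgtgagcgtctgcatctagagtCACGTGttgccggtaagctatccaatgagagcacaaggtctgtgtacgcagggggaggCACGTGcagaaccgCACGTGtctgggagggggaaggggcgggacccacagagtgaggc
Tef: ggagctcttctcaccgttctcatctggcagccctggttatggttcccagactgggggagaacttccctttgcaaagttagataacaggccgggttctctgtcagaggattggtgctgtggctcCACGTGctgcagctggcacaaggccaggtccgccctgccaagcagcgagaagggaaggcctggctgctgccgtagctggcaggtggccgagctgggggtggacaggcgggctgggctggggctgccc
Coq10b: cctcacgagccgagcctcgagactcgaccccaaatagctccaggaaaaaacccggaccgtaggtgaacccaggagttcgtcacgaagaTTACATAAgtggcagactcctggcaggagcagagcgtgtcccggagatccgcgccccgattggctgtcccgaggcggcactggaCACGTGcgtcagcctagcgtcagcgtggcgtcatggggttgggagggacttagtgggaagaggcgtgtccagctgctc

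Over the 9400 tested genes with a promoter in that table, taking the first promoter listed and all 300 bases (250 before and 50 after the start), 9.99% held CACGTG. The share among rhythmic genes was 9.22% for peaks around ZT0, 11.5% around ZT4, 11.9% around ZT8, 13.8% around ZT12, 8.92% around ZT16 and 6.86% around ZT20. It was thus highest for peaks at dusk and lowest late in the night. Of the 33 genes with a peak around ZT12 and a rhythm over 2-fold, 6 (18.2%) held CACGTG. Over all peak times 16 of the 235 genes over 2-fold did (6.81%). A D-box was held by 69 of the 9400 (0.734%) and by 4 of those 33 (12.1%), namely Coq10b, Ak4, Per3 and Slc16a12. None of the genes over 2-fold that peaked in the other windows held one, though 1 of 58 around ZT16 did when any listed promoter counted. Over the 2784 rhythmic genes with a promoter the share with a D-box was 0.718%. The cores TAGGTCA and TGGGTCA, which ROR and REV-ERB proteins can bind, were in 5.53% of all promoters and in 5.69% of genes that peaked around ZT0. These shares are descriptions without a test.

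Outside the core clock, the genes of largest amplitude named here peaked near dusk. Rhythms over 2-fold as a whole were not most frequent there. Over all 22 arrays 42 of the 295 peaked around ZT12, 79 around ZT16, 56 around ZT20 and 49 around ZT0. A further 32 peaked around ZT4 and 37 around ZT8. Sphk2, which encodes a sphingosine kinase, had the largest amplitude of all genes tested, 1.88 ± 0.18 at ZT10.7 ± 0.36 h, a 13.6-fold swing. It read 9.30, 9.69 and 9.27 at ZT8 and 9.23, 9.81, 8.96 and 9.70 at ZT12, and between 5.48 and 7.62 on the other 15 arrays, so that the 7 arrays of those times stood above all others. Usp2, a deubiquitinase, followed with 1.80 ± 0.22 at ZT13.5, and Wee1, a kinase that holds cells before mitosis, had 1.59 ± 0.16 at ZT13.0. Upp2, a uridine phosphorylase, had 1.45 ± 0.23 at ZT10.8, and Acot3, an acyl-CoA thioesterase of the peroxisome, 1.44 ± 0.25 at ZT13.9. At dawn, the manganese exporter Slc30a10 had 1.19 ± 0.17 at ZT0.04 and the tight junction gene Cldn1 1.13 ± 0.15 at ZT23.8.

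In the light phase, the receptor subunit gene Chrna4 had an amplitude of 1.22 ± 0.22 at ZT4.2, Hectd2 1.14 ± 0.20 at ZT4.8, and the desaturase family gene Fads3 1.09 ± 0.15 at ZT8.1. Jchain, a plasma cell gene, had 0.90 ± 0.27 at ZT4.9 (adjusted p = 0.021), which became 0.059 without the 2 arrays away from their hour. In the night, Cyp7a1, the rate-limiting enzyme of bile acid synthesis, had 1.20 ± 0.30 at ZT15.8 ± 1.00 h. The acute phase genes Saa2, Saa1, Orm2 and Lcn2 followed, and Cxcl13, a chemokine that draws B cells, had 0.97 ± 0.27 at ZT19.6, with an adjusted p of 0.014 that became 0.072 without ZT20 replicate 1 and 0.49 without the 3 arrays.

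Genes of protein folding in the endoplasmic reticulum peaked mostly around dawn. Of 18 tested, 13 were rhythmic (29.3% of all genes were), with a median amplitude of 0.306 against 0.109 over all genes, and 10 of the 13 peaked within 2 h of ZT0. Hyou1, an ATP-driven chaperone, read 9.66, 9.54, 9.63 and 9.45 at ZT0 and 8.71, 8.49, 8.46 and 8.32 at ZT12, with no overlap. Its amplitude was 0.50 ± 0.12 at ZT0.24. Hspa5 (BiP), the main chaperone of that compartment, had 0.44 ± 0.10 at ZT1.08, and Sdf2l1 and Manf, both induced when unfolded proteins build up, had 0.61 ± 0.15 at ZT0.44 and 0.60 ± 0.14 at ZT0.31. Herpud1, which helps to clear misfolded proteins, was the exception, at ZT10.0 with 0.56 ± 0.14. The count was 12 without ZT16 replicate 2 and 12 without the 3 arrays.

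Large protein complexes had shallow rhythms at most. Of 33 proteasome subunits, 18 were rhythmic (54.5%, against 29.3% of all genes) and 13 of these peaked around ZT4, with a median amplitude of 0.136. Psmb3 had 0.40 ± 0.11 at ZT4.3 and Psmd2 0.31 ± 0.08 at ZT3.9, and the interferon-induced subunit Psmb9 peaked apart from these, at ZT18.9. Of 70 mitochondrial ribosome genes 25 were rhythmic (35.7%), and of 74 genes of oxidative phosphorylation 17 were, a share of 23% that lies below that of all genes; each held 14 genes that peaked around ZT4. These counts moved with 1 array. Without ZT16 replicate 2 they were 12 for the proteasome, 17 for the mitochondrial ribosome and 6 for oxidative phosphorylation, where 23% of all genes were rhythmic, so that the share of the mitochondrial ribosome was near that of all genes and the share of oxidative phosphorylation below it. Of 63 cytosolic ribosome genes 3 were rhythmic, and 0 without that array.

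Sterol and fatty acid synthesis peaked mostly in the light phase, around ZT6, with a mean peak of ZT5.7 for the rhythmic sterol genes and ZT7.4 for those of lipogenesis. Of 16 genes of cholesterol synthesis, 14 were rhythmic (87.5%, against 29.3% of all genes). Their peaks ran from ZT1.8 to ZT8.4, and the median amplitude over the list was 0.472. Cyp51, a demethylase of lanosterol, read 5.90, 6.17, 5.53 and 6.31 at ZT0, 6.31, 7.05, 6.46 and 6.01 at ZT4, 6.51, 6.78 and 6.24 at ZT8, 6.49, 6.20, 6.35 and 6.03 at ZT12, 4.06, 4.02, 4.62 and 4.94 at ZT16, and 5.06, 6.49 and 6.59 at ZT20. The 4 arrays of ZT16 were below all others, with or without replicate 2. The amplitude of Cyp51 was 0.80 ± 0.19 at ZT5.3. Mvd, of the mevalonate pathway, had 0.76 ± 0.16 at ZT4.3, and Insig1, which holds back the sterol sensor, 0.34 ± 0.067 at ZT5.8. Without ZT16 replicate 2, 10 of the 16 were rhythmic, where 23% of all genes were.

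Of 20 genes of lipogenesis, 14 were rhythmic (70%, against 29.3% of all genes), and 13 without ZT16 replicate 2. Of the 14, 10 peaked around ZT8, and the median amplitude over the list was 0.549. The desaturase Fads1 had 0.82 ± 0.11 at ZT6.5, and it read 8.87, 8.71 and 8.75 at ZT8 and 6.91, 6.02, 6.96 and 6.32 at ZT16. The fatty acid synthase Fasn had 0.62 ± 0.16 at ZT6.1 and Acly, which makes cytosolic acetyl-CoA, 0.55 ± 0.15 at ZT6.2. Their adjusted p-values of 0.0065 and 0.011 became 0.051 and 0.064 without the 2 arrays away from their hour. Insig2 peaked apart from its paralog Insig1, at ZT23.0 with 0.62 ± 0.10. Of 13 genes of acetyl-CoA metabolism, 8 were rhythmic (61.5%) with peaks from ZT4.0 to ZT10.3.

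**Figure D4:**
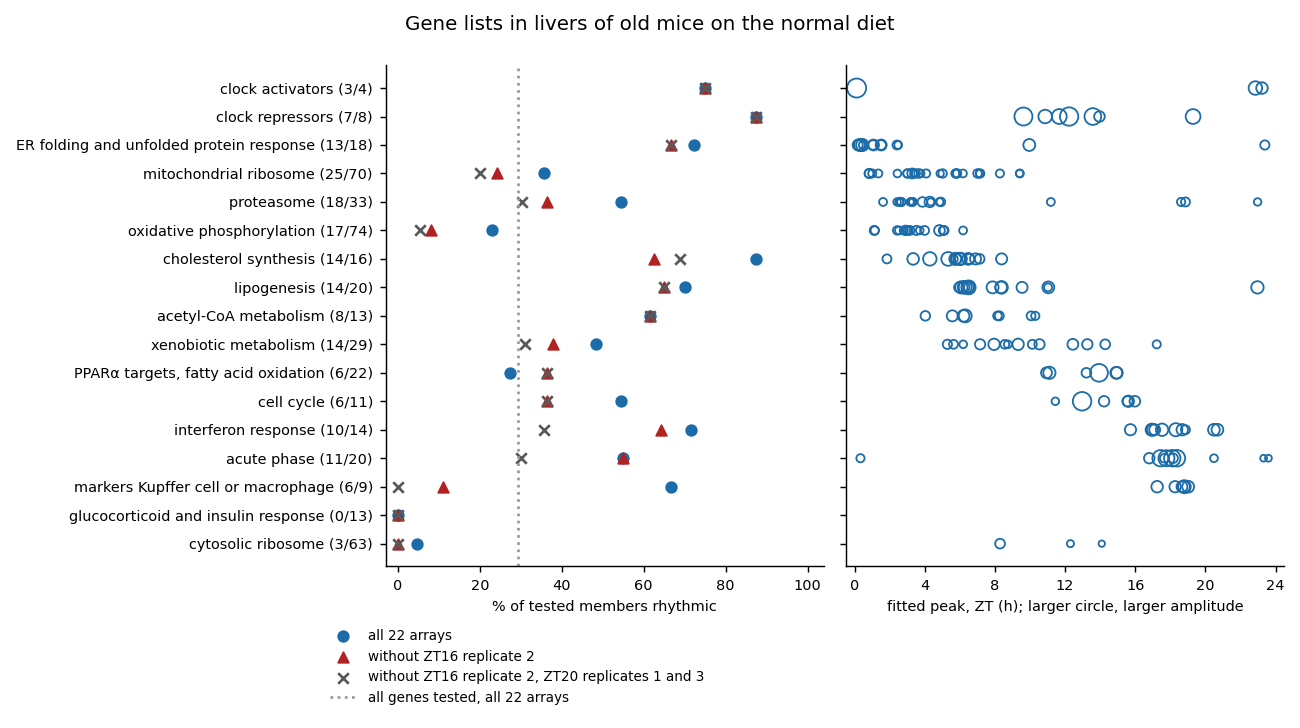
Left, share of tested members that were rhythmic (%, horizontal axis) in 17 gene lists for all 22 arrays (circles), without ZT16 replicate 2 (triangles) and without that array and ZT20 replicates 1 and 3 (crosses), with the share over all genes, 29.3%, as a dotted line; rhythmic and tested members are given in brackets. Right, fitted peak (ZT in h) of each rhythmic member, drawn larger for a larger amplitude: chaperones of the endoplasmic reticulum lie near ZT0, most genes of sterol and fat synthesis from ZT4 to ZT10 and Kupffer cell markers from ZT17 to ZT19.

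For fat oxidation, 6 of 22 targets of PPAR-alpha, the nuclear receptor of fasting, were rhythmic (27.3%). Over all 22 arrays that share was near the 29.3% of all genes. The count rose to 8 without ZT16 replicate 2, where 23% of all genes were rhythmic. It was also 8 without the 2 arrays away from their hour, where 23.9% of all genes were. The receptor's own gene Ppara had 0.44 ± 0.10 at ZT10.9, Cpt1a, the entry step of fatty acids into mitochondria, 0.31 ± 0.06 at ZT13.2, and Acot1 and Acot2 0.55 ± 0.18 and 0.54 ± 0.16 at ZT14.9 and ZT15.0. Of 13 genes of glucose and glycogen metabolism 7 were rhythmic. Those for glycogen were split in time. Ppp1r3c, a subunit that targets a phosphatase to glycogen, had 1.03 ± 0.13 at ZT24.0, its relative Ppp1r3g 1.34 ± 0.26 at ZT8.5, and the liver glycogen synthase Gys2 0.45 ± 0.06 at ZT11.8.

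Bile acid and drug metabolism were also spread over hours. Of 17 bile acid genes, 7 were rhythmic (41.2%, against 29.3% of all genes), and 5 without the 3 arrays. Cyp7a1 read 7.39, 6.78, 6.66 and 6.05 at ZT4, 9.60, 9.06, 9.07 and 7.31 at ZT16, and 8.98, 9.70 and 9.69 at ZT20, so that the 2 later times overlapped ZT4 at 1 array, ZT16 replicate 4. Cyp8b1, which decides the kind of bile acid made, peaked later, at ZT23.4 with 0.47 ± 0.13. The sterol exporters Abcg8 and Abcg5 had 0.80 ± 0.17 and 0.47 ± 0.09 at ZT7.3 and ZT8.5. Of 29 genes of xenobiotic metabolism 14 were rhythmic (48.3%), and 11 without ZT16 replicate 2 and 9 without the 3 arrays. The glutathione transferase Gsta4 had 0.50 ± 0.13 at ZT9.3 and the cytochrome P450 gene Cyp2a5 0.39 ± 0.06 at ZT13.3, while the receptors Nr1i2 (PXR) and Nr1i3 (CAR) peaked at ZT10.5 and ZT14.3.

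Most rhythmic immune transcripts peaked in the night, and several of their counts moved when arrays were left out. Of 20 acute phase genes, 11 were rhythmic (55%, against 29.3% of all genes). The share over all genes also fell, to 23% without ZT16 replicate 2 and further without the 3 arrays. Saa2, a serum amyloid made by hepatocytes under inflammation, read 8.73, 9.16, 9.08 and 8.78 at ZT0, 8.29, 8.82, 8.93 and 9.02 at ZT4, 7.91, 8.59 and 8.76 at ZT8, 9.41, 8.38, 8.53 and 9.62 at ZT12, 10.06, 12.09, 10.03 and 9.90 at ZT16, and 11.13, 10.27 and 11.77 at ZT20. Every array of ZT16 and ZT20 was above every array of the other times. Its amplitude was 1.23 ± 0.20 at ZT18.4, and 0.74 without the 3 arrays, with an adjusted p of 0.029. Orm2, Lcn2 and Saa1 had 1.19, 1.14 and 1.22 at ZT17.4, ZT17.8 and ZT18.1, and adjusted p-values of 0.062, 0.20 and 0.14 without the 3 arrays. The count of the list was 11 without ZT16 replicate 2 and 6 without the 3 arrays.

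Of 14 interferon-induced genes, 10 were rhythmic, with a median amplitude of 0.49, 9 without ZT16 replicate 2 and 5 without the 3 arrays. The 10 were 71.4% of the list, against 29.3% of all genes. Ifit2 read 4.78, 5.62, 5.37 and 5.09 at ZT16 and 5.77, 4.73 and 7.18 at ZT20, and between 4.23 and 5.37 on the other 15 arrays, so the times overlapped. Of 9 Kupffer cell markers 6 were rhythmic around ZT17 to ZT19, 1 without ZT16 replicate 2, and 0 without the 3 arrays. The 6 were 66.7% of the Kupffer cell list, and without ZT16 replicate 2 the share over all genes was 23%. Adgre1, a macrophage surface receptor gene, read 9.87 on ZT16 replicate 2, 9.52 and 8.92 on ZT20 replicates 1 and 3, and between 6.49 and 8.16 on the other 19 arrays. The 3 neutrophil genes that passed the filter on low values, S100a9, Ltf and Camp, were rhythmic with amplitudes of 0.96 ± 0.17, 0.99 ± 0.19 and 0.73 ± 0.14. S100a9 read 10.26 on ZT16 replicate 2 and 5.11 to 8.62 on the others. All 3 neutrophil genes stayed rhythmic without that array. The share of such cells in the rhythms of the acute phase and interferon genes was not tested.

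Among genes that answer to glucocorticoids or insulin, about as many were called for a 12 h component as were not, and none for a 24 h rhythm. None of 13 was called for a 24 h rhythm by limma (29.3% of all genes were), and 0 had an unadjusted p under 0.05, the lowest being 0.055 for Cdkn1a. Without the 2 arrays away from their hour 1 was called. In a fit with 12 h terms added, 298 of the 11675 genes (2.55%) had a 12 h component, and 7 of these 13 did. The gene lists were chosen with earlier results of these data known. The 7 of 13 therefore describes this list and is no independent test of it. For 144 of the 298 the peaks were between ZT2 and ZT6 and again 12 h later. Each 12 h cycle was sampled at only 3 times, so such a wave cannot be told from sharper peaks.

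Zbtb16 (PLZF), a zinc finger gene induced by glucocorticoids, had the largest 12 h amplitude, 1.28, with peaks at ZT3.9 and ZT15.9 (adjusted p = 0.0034). It read 5.73, 6.65, 6.19 and 7.18 at ZT0, 6.17, 7.74 and 6.54 at ZT8, 7.82, 8.73, 8.77 and 8.55 at ZT12, 8.55, 7.57 and 7.60 at ZT20, and between 8.99 and 9.67 on the 8 arrays of ZT4 and ZT16. These 8 were above all others, ZT16 replicate 2 included. Cdkn1a (p21), an inhibitor of the cell cycle, had 1.13 with peaks at the same hours, and it read 10.29, 10.61, 10.05 and 9.52 at ZT4, 7.20, 8.06 and 7.69 at ZT8, and 10.83, 10.33, 9.78 and 11.47 at ZT16. Fkbp5, which binds the glucocorticoid receptor, had 0.78 at ZT3.5 and ZT15.5 (adjusted p = 0.00047). The metallothionein gene Mt1 had 0.99 at ZT3.9 and ZT15.9, and Lpin1, a phosphatidate phosphatase, 0.96 at ZT5.3 and ZT17.3.

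The 7 genes with a 12 h component were Zbtb16, Cdkn1a, Mt1, Lpin1, Fkbp5, Tsc22d3 and Klf9, and 6 of the 13 passed without the 2 arrays away from their hour. Leaving out 1 array gave 4 to 7, with 4 without ZT4 replicate 1 and without ZT0 replicate 2. The count of 298 over all genes ranged from 160 to 394, and was 160 without ZT16 replicate 4, 191 without ZT4 replicate 1 and 196 without ZT0 replicate 4. Among clock genes Per3, Per2 and Nfil3 had a 12 h component besides their 24 h rhythm, with 12 h amplitudes of 0.83, 0.66 and 0.51. In young mice on the normal diet Zbtb16 averaged 6.66 (SD 0.35, n = 4) at ZT0, 8.95 (SD 0.61, n = 5) at ZT4, 6.70 (SD 0.85, n = 4) at ZT8 and 9.29 (SD 0.74, n = 4) at ZT16, and a difference in the 12 h component between the ages was not tested.

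**Figure D5:**
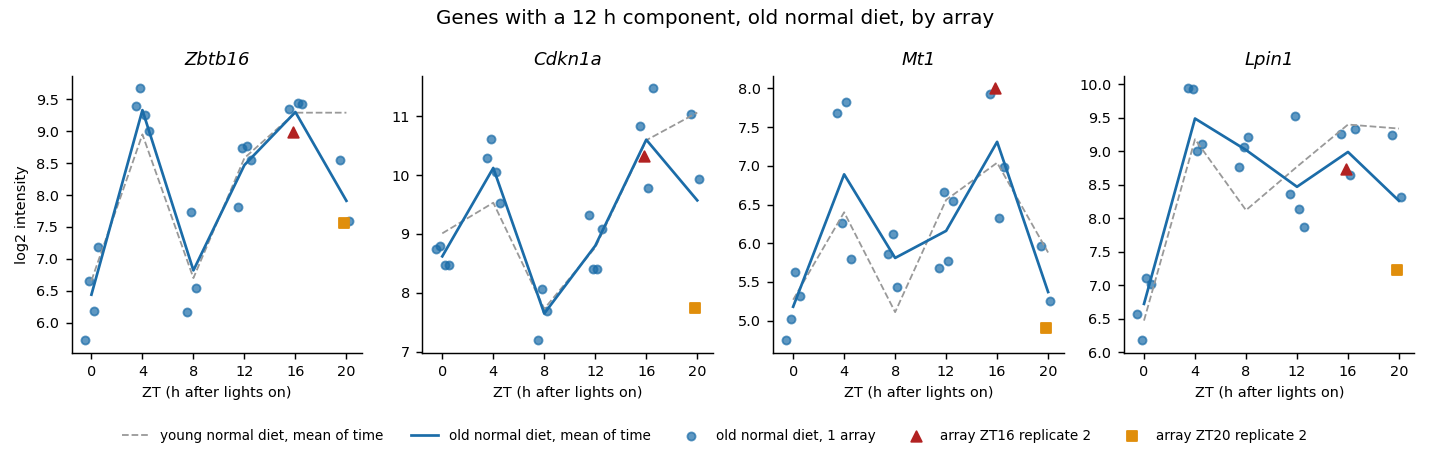
Log2 intensity (vertical axes) by labelled ZT (h, horizontal axis) of the 4 genes with the largest 12 h amplitudes. Points are arrays of old mice on the normal diet, the solid line joins their means and the dashed line those of young mice; the triangle is ZT16 replicate 2 and the square ZT20 replicate 2. Zbtb16 and Cdkn1a were high at ZT4 and ZT16 and low at ZT0 and ZT8.

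Whether age altered these rhythms was asked by setting the waves against those of young mice on the same diet, where 3666 genes (31.4%) were rhythmic and 2063 were rhythmic at both ages. By limma, 0 of 11675 genes (0%) differed in their 24 h rhythm at an adjusted p under 0.05, and 618 had an unadjusted p under 0.05, where 5% of the genes tested would be 584. With the 6 times as separate levels in place of a cosine, 2 genes differed, which are named here after their values were seen. Slc2a4, the insulin-regulated glucose transporter GLUT4, averaged 7.16 (SD 0.50, n = 3) at ZT8, 6.59 (SD 0.28, n = 4) at ZT12 and 6.13 (SD 0.21, n = 4) at ZT16 in old mice, against 6.32, 6.99 and 6.99 in young mice (adjusted p = 0.0052 in limma). Its fitted peaks were ZT9.8 and ZT13.0. Ermard averaged 7.76 (SD 0.15, n = 3) at ZT20 in old mice and 7.06 (SD 0.21, n = 4) in young mice (adjusted p = 0.041).

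For the clock itself, 13 genes were rhythmic at both ages. Their peaks were later in old mice for 10 genes and earlier for 3, and the smallest unadjusted p of the 13 was 0.054. Arntl peaked 1.26 h later (95% interval 0.17 to 2.36 h) and Per3 1.41 h later (0.22 to 2.6 h), and the intervals of the other 11 included 0. Without the 2 arrays away from their hour these delays were 0.78 h (-0.26 to 1.83 h) and 1.02 h (-0.06 to 2.11 h), and the intervals of all 13 genes included 0. Those 2 arrays were chosen by their early clock times, read from clock genes against young curves, so this is no independent check of the delays. Without the 3 arrays apart, which leaves ZT20 replicate 2 as the only ZT20 array, 3 intervals lay above 0, those of Per3, Tef and Hlf, and Arntl had 0.99 h (-0.17 to 2.16 h). Per2 peaked 1.13 h later (-0.44 to 2.7 h) and Nr1d2 0.77 h later (-0.41 to 1.95 h). Amplitudes were higher in old mice for 9 of the 13, with intervals that all included 0, such as 0.08 for Arntl (-0.13 to 0.3) and 0.13 for Per3 (-0.33 to 0.59). Over the 4117 genes that were rhythmic in both calorie-restricted groups, a choice independent of the normal diet, the median log2 ratio of old to young amplitude was 0.04, with quartiles of -0.45 and 0.50, and the median peak difference was 0.19 h.

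The comparison with calorie restriction in old mice shares the same 22 arrays with the comparison by age. Under restriction 5070 genes (43.4%) were rhythmic, and 1549 (13.3%) differed in rhythm from the normal diet, 1215 of them with the smaller amplitude on the normal diet and 334 with the larger. In 533 of the 1549 the gene was rhythmic on both diets, with peaks over 4 h apart in 290. Without the 2 arrays away from their hour 1361 genes differed, and without the 3 arrays 1317.

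Heat shock chaperones had weaker rhythms on the normal diet. Of 13 tested, 3 were rhythmic there and 12 under restriction, the median amplitudes were 0.176 and 0.648, and 11 differed (13.3% of all genes did). Hsp90aa1, a cytosolic chaperone, averaged between 8.72 (SD 0.19, n = 4) at ZT12 and 9.56 (SD 0.52, n = 3) at ZT20 on the normal diet. Under restriction it ran from 7.67 (SD 0.32, n = 4) at ZT8 to 10.36 (SD 0.12, n = 4) at ZT16. The amplitudes were 0.36 at ZT22.8 and 1.38 at ZT17.5 (adjusted p of the difference = 2.3e-10 in limma). Hspb1, a small heat shock protein gene, had 0.54 at ZT23.1 against 1.44 at ZT18.8, and Hspa1b, an inducible HSP70 gene, 0.48 against 1.83 (adjusted p = 0.012). Hspa1b spread over 5.33 to 8.11 at ZT16 alone on the normal diet.

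For glucose output, no 24 h rhythm was called on the normal diet in a gene that swung widely under restriction. G6pc, the last enzyme of glucose release, averaged 12.37 (SD 0.32, n = 4) at ZT0, 12.19 (SD 0.25, n = 4) at ZT4, 11.79 (SD 0.49, n = 3) at ZT8 and 12.19 (SD 0.27, n = 4) at ZT12, with an amplitude of 0.14 ± 0.15 (adjusted p = 0.75). Under restriction it fell to 9.05 (SD 0.16, n = 4) at ZT8 and was 12.19 (SD 0.19, n = 4) at ZT20, with an amplitude of 1.40 (adjusted p of the difference = 2.0e-05 in limma). Cdkn1a had a 24 h amplitude of 0.67 against 1.84, and its levels differed most at ZT4, at 10.12 (SD 0.46, n = 4) against 7.37 (SD 0.40, n = 3).

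Other genes peaked later on the normal diet. Sphk2 peaked at ZT10.7 against ZT7.8 under restriction, and at ZT4 its arrays read 5.95 to 7.07 against 8.63 to 9.60, with no overlap. Slc30a10 peaked at ZT0.04 against ZT21.3, and Camk1d, a calcium-dependent kinase gene, at ZT0.87 with an amplitude of 0.84 against ZT20.2 with 1.42. Of the 18 folding genes of the endoplasmic reticulum 13 differed, and Hyou1 peaked at ZT0.24 with 0.50 against ZT18.8 with 1.14. In the clock lists Arntl, Clock, Per2, Per3, Cry1, Nr1d2, Tef and Nfil3 differed, each with the smaller amplitude and the later peak on the normal diet, such as 0.70 at ZT22.8 against 1.36 at ZT19.3 for Nfil3.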

How the data were processed

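Liver RNA of these 22 samples and of 81 from the other groups was measured on 1-colour Affymetrix arrays. The authors deposited 1 table of log2 intensities for 21261 probe sets, made with RMA per the submitters' processing notes; its values ran from -1.28 to 14.2 and were used without further normalization. The log2 scale was read from that range, since the labels do not name it, and RMA understates changes of probe sets near background. Of the probe sets, 15869 had 1 gene symbol, 225 had several and 5167 had none. For a gene with several probe sets, that with the highest mean was used, which gave 15567 genes. The 25% of genes with the lowest mean over all arrays were left out, which left 11675 genes. Array medians of the 22 arrays lay between 5.33 and 5.43, and the number of arrays limits the precision.

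Groups came from the sample labels. In limma 3.58.1 (R 4.3.3), 1 model over the arrays of all groups held, for each group, a mean with a cosine and a sine of 24 h, plus labelled sex, with eBayes (trend). Moderated F tests, 2-sided in effect, were adjusted by Benjamini-Hochberg over the 11675 genes, with a threshold of 0.05. Differences between groups were tested as F tests on the differences of both terms, and the 12 h component by adding 12 h terms. The calculation was tested on simulated data. Named genes are the clock genes, the 12 rhythmic genes with the largest amplitude, the 3 largest per 4 h peak window, the 8 largest differences, the 4 largest 12 h amplitudes, and examples from lists with the largest amplitudes first, without predicted and sex-linked genes; genes outside that rule are named as members of the lists or to set a value in context. The members and the gene lists were chosen with earlier results of these data known. Alternatives in normalization, filter, model and arrays are given in the closing section.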

Additional observations from a re-analysis of the deposited data

Results flagged for a closer look

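A single array lay far from the other 3 of its time in 17 of 228 groups of 4 arrays tested with Dixon's criterion, which chance meets in about 1 of 20 groups. The array ZT16 replicate 2 gave 5 of the 17. On it Saa2 read 12.09 and Lcn2 13.11, and the list means were 11.26 for acute phase genes, 8.70 for neutrophil markers and 8.35 for markers of sinusoidal endothelium. ZT16 replicate 4 was low in Nr1d2 (5.61) and Sphk2 (5.86) and high in Chrna4 (5.81).

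The other 9 were spread over arrays. At ZT0, Nr1d2 read 6.92 on replicate 3 and Ciart 5.38 on replicate 1. At ZT4, Sphk2 read 7.07 on replicate 1 and Fads3 6.34 on replicate 2. At ZT12, Tef read 8.51 on replicate 2 and Cxcl13 7.95 on replicate 4. The acute phase mean was 10.07 on ZT4 replicate 3. On ZT4 replicate 1 the mean of T and NK cell markers was 4.86 and the clock time was -0.8 h from its label, nearer than on the other 3 arrays of that time.

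The rhythms of 8 genes differed most between old mice on the normal and the restricted diet, each by the F test of the difference in limma. The size of the difference between the waves, in log2 units, was 1.66 for Sphk2, 1.48 for Slc30a10, 1.40 for G6pc, 1.38 for Camk1d, 1.36 for Hsp90aa1, 1.35 for Hspa1b, 1.29 for Hspb1 and 1.25 for Cdkn1a.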

How the results depend on the processing

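The count of 3423 rhythmic genes ranged from 2691 to 3620 with 1 array left out, was lowest without ZT16 replicate 2, and was 2068 without the 3 arrays that stood apart (chosen after seeing the data). Labelled females alone gave 403, an adjusted p under 0.01 gave 1765, and counting each probe set gave 5395. The count of 1549 differences from the restricted diet ranged from 1326 to 1669, and was 101 in labelled females, 920 in labelled males and 710 at 0.01. The count of 0 differences from young mice was 0 in each such omission, 2 with time as 6 levels, 0 in labelled females and 16 in labelled males. The 12 h count of 298 ranged from 160 to 394, and was 145 from the 22 arrays alone, 1 in labelled females and 172 in labelled males. The median log2 amplitude ratio ranged from -0.015 to 0.103 and the median clock distance from 1.00 to 1.10 h. Same-numbered arrays did not deviate together (median r = -0.04), and a replicate block gave 3234 rhythmic genes, 0 and 1329 differences from young and restricted mice, and 202 genes at 12 h. For single named genes, 1591 values kept their side of the threshold, 37 lost their call and 7 gained one. No gene called in the main fit moved its peak by over 6 h. Peak shifts of genes not called there were not counted. The limits are the 3 or 4 arrays per time, 1 cycle sampled at 6 times, and labelled sexes that the values do not separate.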

Other observations

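Nitrogen and cofactor metabolism held further rhythms. Of 14 genes of amino acid and urea metabolism 7 were rhythmic (29.3% of all genes were). Agxt, which converts glyoxylate to glycine, had an amplitude of 0.65 ± 0.084 at ZT5.3, and Otc, of the urea cycle, 0.44 ± 0.071 at ZT2.5, while the urea cycle gene Asl peaked at ZT13.3. Of 15 genes of NAD metabolism 6 were rhythmic (40%). Nmrk1, a nicotinamide riboside kinase, had 1.15 ± 0.12 at ZT13.5 (adjusted p = 5.3e-12 in limma), and Kynu, of the pathway from tryptophan, had 0.53 ± 0.10 at ZT0.85. Of 9 genes of haem metabolism 4 were rhythmic (44.4%), among them the synthesis genes Ppox with 0.41 ± 0.077 at ZT6.3 and Fech with 0.38 ± 0.076 at ZT8.3. The iron exporter gene Slc40a1 had 0.35 ± 0.074 at ZT16.9.

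Of 26 genes of autophagy and lysosomes 6 were rhythmic, a share of 23.1% that lies below the 29.3% of all genes. Bnip3, a mitophagy receptor, had a narrow error, with 0.34 ± 0.034 at ZT12.4 (adjusted p = 4.1e-12 in limma), and Tfe3, a factor that drives lysosomal genes, peaked near the opposite hour, at ZT23.1 with 0.28 ± 0.040. Of 11 cell cycle genes 6 were rhythmic (54.5%), and 4 without ZT16 replicate 2, with Wee1 the largest. Mki67, a marker of dividing cells, had 0.49 ± 0.12 at ZT15.6, with an adjusted p of 0.0052 that became 0.061 without the 2 arrays away from their hour. Of 16 antioxidant genes 6 were rhythmic (37.5%), and Sod1 had 0.35 ± 0.067 at ZT12.9.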
